A study of Bos indicus with 12 samples.

Results

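The 10 genes described here encode the core antioxidant enzymes of mammalian cells and the transcription factor that switches many of them on: SOD1, SOD2, CAT, GPX1, GPX4, PRDX1, TXN, HMOX1, GCLM and NFE2L2. They were chosen by symbol, through the gene identifiers of the count table, and each symbol matched 1 of the 26229 identifiers. All 10 passed the filter on low counts, as did 15420 genes in all. RNA from blood of 12 female Bos indicus (zebu) cows had been sequenced, in 4 groups of 3: high-yielding Gir, low-yielding Gir, high-yielding Shweta Kapila and low-yielding Shweta Kapila. Gir and Shweta Kapila are Indian zebu breeds, and the cows had reached the second or the third lactation. Yield class was set within each breed from lactation records, so a high-yielding Gir and a high-yielding Shweta Kapila cow need not give the same amount of milk. No other treatment or genotype is named in the labels, and the sources used here give neither ages nor milk yields.

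Superoxide, made by the mitochondrial respiratory chain and by the NADPH oxidase of phagocytes, is turned into hydrogen peroxide by superoxide dismutases. Catalase, glutathione peroxidases and peroxiredoxins then remove the peroxide, drawing on glutathione and thioredoxin, which are recharged with NADPH. In stressed cells NRF2, the product of NFE2L2, escapes its inhibitor KEAP1 and raises transcription of genes such as HMOX1, GCLM, TXN and PRDX1, while BACH1 competes for the same sites and holds HMOX1 down. High milk output raises oxidative metabolism in dairy cows, and blood leukocytes are often used to follow it.

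Expected counts per library summed to 14.2 to 27.2 M (mega-counts). In Gir all 6 totals lay between 14.2 and 20.7 M, whereas 3 Shweta Kapila libraries (high-yielding cow 3 and low-yielding cows 1 and 2) exceeded 22 M. Each library also had counts on 37 unnamed identifiers shorter than the rest, called short identifiers here, and their share of the total was followed. The labels call the cells peripheral blood mononuclear cells and also name a kit that takes in whole blood. CSF3R, the neutrophil growth factor receptor, was present at 479 to 2147 CPM (counts per mega-count of the library total) in all 12 libraries, so transcripts of granulocytes were part of the material. T cell, B cell, natural killer (NK) cell and monocyte markers were present as well. Of the red cell genes, AHSP and SLC4A1 were at 0 in 3 and 5 libraries, whereas ALAS2 (8.88 to 528 CPM), GYPC (19.3 to 168 CPM) and GATA1 (9.96 to 51.6 CPM) were present in all 12. The expected counts of all 10 genes were not whole in 12 of 12 libraries. How the authors' counting gave such values is not known here, and a share of reads from near-identical copies cannot be told apart. In such bulk RNA, fewer cells of a type and less RNA per cell cannot be told apart.

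None of the 10 genes passed a false discovery rate of 0.05 in any of the 5 comparisons (edgeR quasi-likelihood test over all genes), and neither did any other gene, a background of 0% in each. At an unadjusted p under 0.05 stood 1 of 10 in the Gir yield comparison, where 1.89% of all genes did, and 0 of 10 in the Shweta Kapila yield comparison, where 6.98% did. Over both breeds together 0 of 10 stood there, against 4.13% of genes. The difference between the breeds' yield effects placed 1 of 10 there, against 3.81%. The breed comparison placed 4 of 10 there, against 9.57%. DESeq2 called 0 of the 10 in each comparison, against 0.0065% of all genes for yield in Gir, 0.396% for yield in Shweta Kapila, 0.026% over both breeds, 0.0585% for the difference between the yield effects and 1.27% for breed. Limma-voom with sample weights called 2 of 10 for yield in Shweta Kapila, where it called 25.3% of all genes, 2 for the difference (8.57% of genes) and 4 for breed (16.7%). It called 0 of 10 for yield in Gir (0.00649%) and over both breeds (8.36%).

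**Figure D1:**
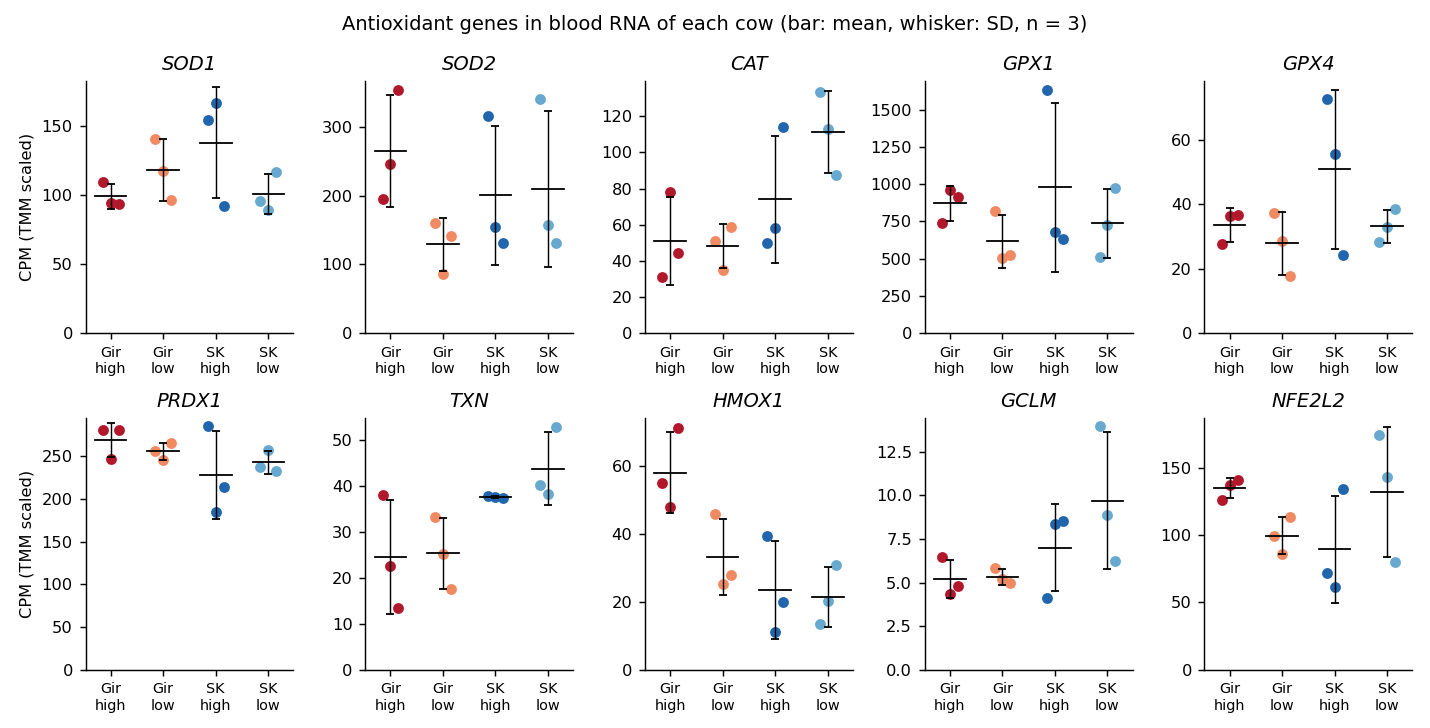
Level of each of the 10 genes in each cow, in CPM after TMM scaling, on linear axes that start at 0 (SK, Shweta Kapila; bar, mean; whisker, SD, n = 3). SOD2, HMOX1 and NFE2L2 of all 3 high-yielding Gir cows lie above those of all 3 low-yielding Gir cows, and the Shweta Kapila points of several genes split within a group.

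SOD1 (Gene ID 109556178) encodes the copper-zinc superoxide dismutase of the cytosol. Its level was 109, 94.0 and 93.6 CPM in high-yielding Gir cows 1 to 3 and 141, 117 and 96.1 CPM in the low-yielding ones. In high-yielding Shweta Kapila it was 155, 167 and 92.0 CPM, and in low-yielding Shweta Kapila 96.0, 89.2 and 117 CPM. Both pairs of yield groups overlapped, and the high-yielding Shweta Kapila cows 1 and 2 stood above the other 10 cows. The log2 fold change of high over low yield was -0.25 ± 0.25 (SE) in Gir and 0.45 ± 0.25 in Shweta Kapila, with adjusted p of 1 and 0.655. Between the breeds it was -0.12 ± 0.18 (Gir over Shweta Kapila, adjusted p = 0.832).

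SOD2 (Gene ID 109564093), the manganese enzyme of the mitochondrial matrix, is induced by inflammatory signals in many cell types. In Gir its level was 194, 246 and 353 CPM in the high-yielding cows and 160.2, 85.2 and 141 CPM in the low-yielding cows. The lowest high-yielding cow therefore stood above the highest low-yielding one. Group means were 265 ± 81.0 and 129 ± 39.0 CPM (SD, n = 3), a log2 fold change of 1.04 ± 0.43 (unadjusted p = 0.0332, adjusted p = 1 by edgeR). In Shweta Kapila the levels were 316, 155 and 131 CPM at high yield and 339.9, 157 and 131 CPM at low yield. Each Shweta Kapila group held a single high cow and a pair of low ones, and the log2 fold change was -0.06 ± 0.43 (adjusted p = 0.964). Averaged over yield classes, SOD2 differed between breeds by a log2 fold change of -0.15 ± 0.30 (adjusted p = 0.885).

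CAT (Gene ID 109569586) encodes catalase, the peroxisomal enzyme that splits hydrogen peroxide without any reducing partner and that red cells also carry in large amounts. It measured 31.1, 78.2 and 44.1 CPM in high-yielding and 51.0, 35.1 and 58.9 CPM in low-yielding Gir. In Shweta Kapila it measured 49.6, 58.3 and 114 CPM at high yield and 133, 113 and 87.6 CPM at low yield. Mean CAT was 49.7 ± 17.3 CPM in Gir and 92.6 ± 33.4 CPM in Shweta Kapila (SD, n = 6), with overlapping ranges. The breed log2 fold change was -0.87 ± 0.27 (unadjusted p = 0.00788, adjusted p = 0.342 by edgeR), the lowest p of the members in that comparison. Without the 3 libraries over 22 M, a fit that keeps only cow 3 of the low-yielding Shweta Kapila, it was -0.46. The summed level of 15 of 17 listed red cell markers lay between 548 and 1270.5 CPM in Gir and between 530.5 and 787 CPM in Shweta Kapila, and its part in the result was not tested. Yield differences of CAT were 0.08 ± 0.39 in Gir and -0.59 ± 0.39 in Shweta Kapila on the log2 scale, with adjusted p of 1 and 0.655.

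GPX1 (Gene ID 109576172) encodes the selenium-containing glutathione peroxidase of the cytosol and mitochondria. High-yielding Gir cows had 739, 958 and 913 CPM and low-yielding ones 818, 502 and 524 CPM. In Shweta Kapila the levels were 1631, 675 and 629 CPM at high yield and 512, 726 and 976 CPM at low yield. The groups overlapped in both breeds, and high-yielding Shweta Kapila cow 1 had the highest level of the 12. Log2 fold changes were 0.50 ± 0.38 for yield in Gir (adjusted p = 1), 0.41 ± 0.38 for yield in Shweta Kapila (adjusted p = 0.702) and -0.22 ± 0.27 for breed (adjusted p = 0.796). Without high-yielding Shweta Kapila cow 1 the Shweta Kapila yield value became -0.17 and the breed value 0.08.

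GPX4 (Gene ID 109561977) encodes the peroxidase that reduces lipid peroxides within membranes and guards cells against ferroptosis. It measured 27.5, 36.5 and 36.8 CPM in high-yielding Gir and 37.3, 28.5 and 17.8 CPM in low-yielding Gir. The Shweta Kapila cows had 72.7, 55.4 and 24.2 CPM at high yield and 28.2, 32.8 and 38.4 CPM at low yield. High-yielding Shweta Kapila held the 2 highest cows and also a cow below all low-yielding ones, so the groups overlapped. The log2 fold change for yield was 0.27 ± 0.37 in Gir (adjusted p = 1) and 0.61 ± 0.37 in Shweta Kapila (adjusted p = 0.655), and that for breed was -0.42 ± 0.26 (adjusted p = 0.617).

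PRDX1 (Gene ID 109556354), a peroxiredoxin that reduces peroxides with electrons from thioredoxin, was the steadiest of the 10. Its level was 281, 246 and 281 CPM in high-yielding Gir, 256, 245 and 265 CPM in low-yielding Gir, 285, 185 and 214 CPM in high-yielding Shweta Kapila and 237, 257 and 233 CPM in low-yielding Shweta Kapila. The highest cow had 1.54 times the level of the lowest. Within groups the SD on the log2 scale was 0.174, and 3.92% of all tested genes had a smaller one. Log2 fold changes were 0.08 ± 0.20 and -0.09 ± 0.20 for yield in Gir and in Shweta Kapila and 0.16 ± 0.14 for breed (adjusted p of 1, 0.872 and 0.725).

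TXN (Gene ID 109563333) encodes thioredoxin, the small protein that passes electrons to peroxiredoxins and to ribonucleotide reductase. Levels were 38.0, 22.5 and 13.4 CPM in high-yielding Gir and 33.3, 25.1 and 17.6 CPM in low-yielding Gir. In Shweta Kapila they were 37.9, 37.6 and 37.5 CPM at high yield and 40.3, 38.2 and 52.9 CPM at low yield. The 3 high-yielding Shweta Kapila cows were almost equal, all 3 lay below the low-yielding ones, and a single Gir cow reached the Shweta Kapila range. TXN was the only 1 of the 10 whose Shweta Kapila yield groups did not overlap, where 7.21% of all genes did not. The yield log2 fold change there was -0.22 ± 0.35 (adjusted p = 0.816), and in Gir it was -0.04 ± 0.35 (adjusted p = 1). Mean TXN was 25.0 ± 9.30 CPM in Gir and 40.7 ± 6.04 CPM in Shweta Kapila (SD, n = 6), a log2 fold change of -0.70 ± 0.25 (unadjusted p = 0.0144, adjusted p = 0.401 by edgeR). Low-yielding Shweta Kapila cow 3, with the highest TXN, also had the highest summed level of 9 of 10 listed B cell markers. That sum was 3200 CPM, against 789 to 2301 CPM in the other cows. Its median was 1544 CPM in Gir, where mean TXN was lower, and 913 CPM in Shweta Kapila. The part of B cells in the result was not tested.

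GCLM (Gene ID 109556808) encodes the modifier subunit of glutamate-cysteine ligase, which sets the pace of glutathione synthesis. It was the least covered of the 10, with 64.6 to 314 expected counts per library. Gir cows had 6.45, 4.35 and 4.80 CPM at high yield and 5.84, 5.19 and 4.97 CPM at low yield. Shweta Kapila cows had 4.11, 8.37 and 8.52 CPM at high yield and 14.0, 8.88 and 6.22 CPM at low yield. The Gir cows fell within a narrow band, while the Shweta Kapila cows spanned from below that band to well above it. The breed log2 fold change was -0.65 ± 0.26 (unadjusted p = 0.0291, adjusted p = 0.474 by edgeR). It was -0.24 without the 3 libraries over 22 M, with only cow 3 left of the low-yielding Shweta Kapila. For yield it was -0.04 ± 0.37 in Gir and -0.47 ± 0.37 in Shweta Kapila, with adjusted p of 1 and 0.672.

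HMOX1 (Gene ID 109559493) encodes heme oxygenase 1, which breaks heme into biliverdin, carbon monoxide and iron and is abundant in monocytes and macrophages that take up red cells. High-yielding Gir cows had 55.1, 48.0 and 71.1 CPM and low-yielding ones 46.0, 25.3 and 28.0 CPM. In Shweta Kapila the levels were 39.4, 11.1 and 19.8 CPM at high yield and 13.4, 20.2 and 30.8 CPM at low yield. All 3 high-yielding Gir cows stood above the other 9 cows, and the remaining 3 groups overlapped. The share of all genes with that pattern was not counted, and the Gir yield groups alone did not overlap for 10.2% of them. The Gir yield means were 58.1 ± 11.8 and 33.1 ± 11.2 CPM (SD, n = 3), a log2 fold change of 0.81 ± 0.44 (unadjusted p = 0.0882, adjusted p = 1 by edgeR). In Shweta Kapila it was 0.12 ± 0.44 (adjusted p = 0.923). Over both yield classes mean HMOX1 was 45.6 ± 17.1 CPM in Gir and 22.5 ± 10.8 CPM in Shweta Kapila (SD, n = 6), a log2 fold change of 0.97 ± 0.31 (unadjusted p = 0.00888, adjusted p = 0.343 by edgeR).

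NFE2L2 (Gene ID 109566139) encodes NRF2, whose activity is set mainly by the stability of the protein, so the transcript need not follow the protein. It measured 126, 138 and 141 CPM in high-yielding Gir and 99.2, 85.8 and 113 CPM in low-yielding Gir. In Shweta Kapila it measured 72.1, 61.5 and 134 CPM at high yield and 175, 143 and 79.7 CPM at low yield. The Gir groups did not overlap, with all 3 high-yielding cows above, whereas the Shweta Kapila groups each held cows from both ends of the breed's range. The log2 fold change for yield was 0.44 ± 0.33 in Gir (adjusted p = 1) and -0.57 ± 0.33 in Shweta Kapila (adjusted p = 0.655). Between breeds it was 0.09 ± 0.23 (adjusted p = 0.911). Without the 3 libraries over 22 M, with only cow 3 left of the low-yielding Shweta Kapila, the breed value was 0.68. It was 0.46 with log2 total and 0.31 with the share of short identifiers as a covariate.

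**Figure D2:**
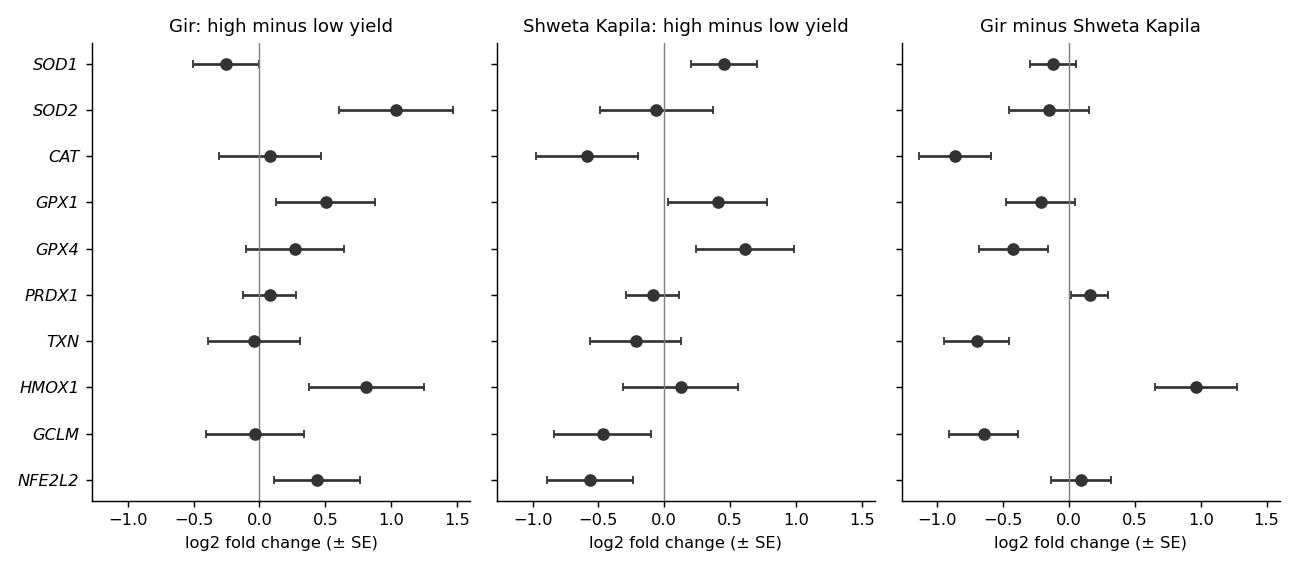
Log2 fold change of each gene with its SE in the 2 yield comparisons (high minus low) and the breed comparison (Gir minus Shweta Kapila), from a fit to all 12 libraries. SOD2 (1.04) and HMOX1 (0.81) have the largest values for yield in Gir, and HMOX1 (0.97) and CAT (-0.87) for breed; none passed the false discovery rate.

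Of the Gir yield estimates, 7 of 10 were positive, with a median log2 fold change of 0.18, beside -0.02 over all genes. Gir yield groups failed to overlap for 3 of the 10 (SOD2, HMOX1 and NFE2L2), each higher at high yield, where 10.2% of all genes failed to overlap. In Shweta Kapila 4 of the 10 were positive, with a median of -0.08, beside -0.02 over all genes. Over both breeds 5 were positive and the median was 0.05, beside -0.01. There the log2 fold change of high over low yield was 0.49 ± 0.30 for SOD2, 0.47 ± 0.31 for HMOX1, 0.45 ± 0.27 for GPX1, 0.44 ± 0.26 for GPX4 and 0.10 ± 0.18 for SOD1. It was -0.25 ± 0.27 for CAT, -0.25 ± 0.26 for GCLM, -0.13 ± 0.25 for TXN, -0.06 ± 0.23 for NFE2L2 and -0.01 ± 0.14 for PRDX1, and adjusted p ran from 0.874 to 0.994 over the 10. For breed 3 were higher in Gir and 7 lower, with a median of -0.18 beside -0.04, and no member separated the 6 Gir from the 6 Shweta Kapila cows, as 0.603% of all genes did.

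Whether yield went with these genes differently in each breed was tested by the difference of the yield log2 fold changes (Gir minus Shweta Kapila). NFE2L2, positive in Gir and negative in Shweta Kapila, gave 1.01 ± 0.46 (unadjusted p = 0.0494, adjusted p = 0.955 by edgeR). SOD2 gave 1.10 ± 0.61 (unadjusted p = 0.0947), HMOX1 0.69 ± 0.62 (unadjusted p = 0.288) and SOD1 -0.71 ± 0.35 (unadjusted p = 0.0683), each with adjusted p = 0.955. The remaining values were 0.67 ± 0.54 for CAT, 0.09 ± 0.53 for GPX1, -0.34 ± 0.53 for GPX4, 0.16 ± 0.28 for PRDX1, 0.18 ± 0.49 for TXN and 0.43 ± 0.52 for GCLM, with adjusted p of 0.955 to 0.989. The values of NFE2L2 and SOD1 have opposite signs, and the levels of these genes ran against each other across the cows. The NFE2L2 difference was 0.31 (adjusted p = 0.824) with the share of short identifiers as a covariate and 1.49 (adjusted p = 0.0235) with limma-voom. The SOD2 difference was 0.20 without the libraries over 22 M, a fit that keeps only cow 3 of the low-yielding Shweta Kapila. With the log2 sum of monocyte markers as a covariate, a setting added after the data had been seen, it was 0.39. That of HMOX1 was 0.047 with the monocyte sum and 1.12 without those libraries, and that of SOD1 was -0.28 with the short-identifier share.

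The Shweta Kapila cows split along library total more clearly than along yield class for 5 of the 10 genes. In the 3 libraries over 22 M, NFE2L2 was at 134 to 175 CPM, against 61.5 to 79.7 CPM in the other 3. CAT was at 113 to 133 CPM against 49.6 to 87.6 CPM, and GCLM at 8.52 to 14.0 CPM against 4.11 to 8.37 CPM. SOD1 ran the other way, with 89.2 to 96.0 CPM against 117 to 167 CPM, and so did GPX4, with 24.2 to 32.8 CPM against 38.4 to 72.7 CPM. Thus 5 of the 10 genes separated these libraries, 3 higher and 2 lower, where 46% of all tested genes separated them, a share near the members' own. The large libraries also carried 9.00% to 13.1% of their counts on the short identifiers, against 4.54% to 5.57% in the other 3 and 6.20% to 8.70% in Gir. With that share as a covariate, the Shweta Kapila yield value of NFE2L2 went from -0.57 to 0.09, that of SOD1 from 0.45 to 0.06, that of GPX4 from 0.61 to -0.06 and that of CAT from -0.59 to -0.18. Since 2 of the 3 large libraries are low-yielding and 1 is high-yielding, library total and yield are partly mixed in this breed.

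**Figure D3:**
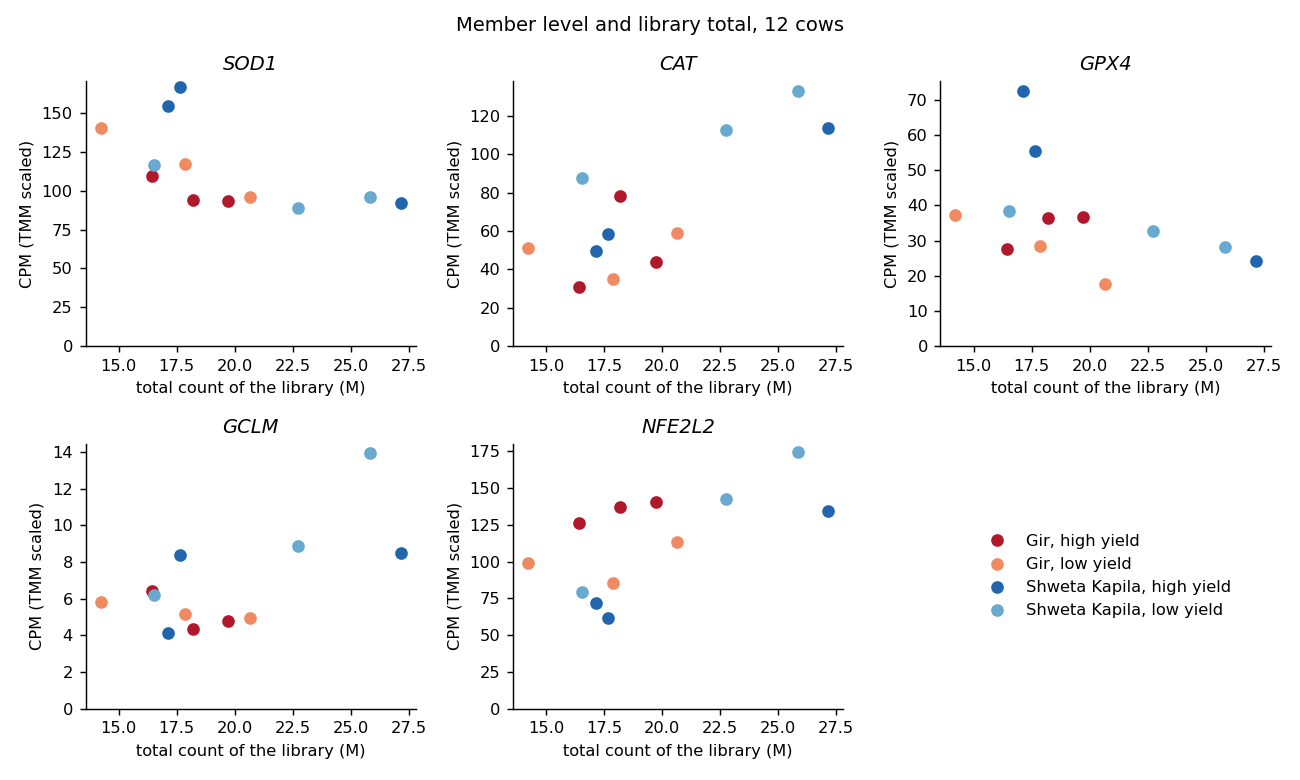
Level (CPM, linear) of the 5 genes that separated the large Shweta Kapila libraries, against total count in M, 1 point per cow. The 3 points right of 22 M are all Shweta Kapila; they lie above the other Shweta Kapila cows for CAT, GCLM and NFE2L2 and below them for SOD1 and GPX4.

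Monocyte marker sums did not overlap between the yield groups of Gir. The summed level of 6 of 9 listed markers (CD14, CSF1R, CD68 and VCAN among them, none of the 6 at 0 in any library) was 476 to 699 CPM in high-yielding and 275 to 458.5 CPM in low-yielding Gir. In Shweta Kapila it was 161 to 414 CPM at high and 317 to 365 CPM at low yield. With this sum, on the log2 scale, as a covariate, the Gir yield value of HMOX1 was 0.23 in place of 0.81. That of SOD2 was 0.53 in place of 1.04, that of GPX1 was 0.12 in place of 0.50, and that of NFE2L2 was 0.08 in place of 0.44. That of GPX4 was 0.28 in place of 0.27. Marker level and yield class are mixed in the Gir cows, so this covariate cannot separate them, and the part of monocytes was not tested. The breed value of HMOX1 was 0.50 in place of 0.97, whereas that of CAT was -1.24 in place of -0.87. Neutrophil markers, 7 of 12 listed and none at 0, summed to 4023 to 5954 CPM in high-yielding and 3390 to 4196 CPM in low-yielding Gir, and their part in the result was not tested. In Shweta Kapila, 8 of 11 NK markers summed to 1462 to 3838 CPM at high yield and 532 to 1274 CPM at low yield, and 14 of 14 T cell markers to 4912 to 6452 and 2989 to 4457 CPM; their part in the Shweta Kapila values was not tested either.

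**Figure D4:**
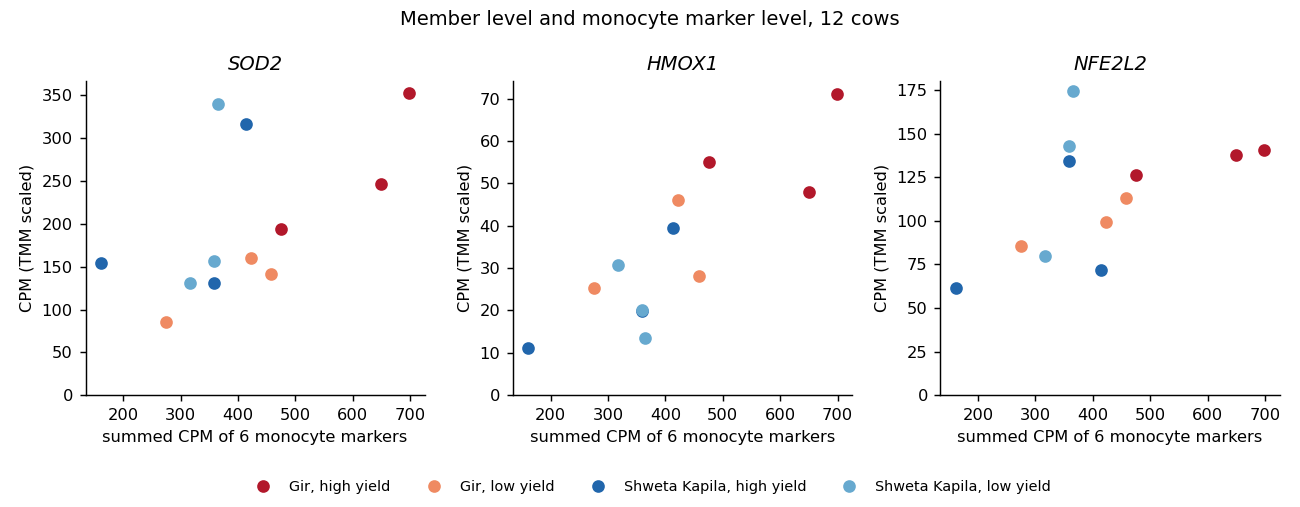
SOD2, HMOX1 and NFE2L2 (CPM, linear) against the summed CPM of 6 monocyte markers, 1 point per cow. The high-yielding Gir cows, at 476 to 699 CPM of markers, hold the right end of each panel. HMOX1 is at 11.1 CPM in the cow with the fewest marker transcripts and 71.1 CPM in the cow with the most. The rise between them is not steady. Low-yielding Shweta Kapila cow 1, at 365 CPM of markers, has 13.4 CPM, and low-yielding Gir cow 2, at 275 CPM, has 25.3 CPM.

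The transcripts of the neighbouring pathway were followed in a list of 72 further genes, of which 68 matched an identifier and 64 passed the filter. None was called in any comparison by edgeR or DESeq2, while limma-voom called 14 for breed, 22 for yield in Shweta Kapila, 7 for the difference between the yield effects, 5 for both breeds and 0 for yield in Gir. Of 64 genes these stand beside 16.7%, 25.3%, 8.57%, 8.36% and 0.00649% of all genes called by that tool. In Gir 37 of 64 were higher at high yield and 27 lower, with 0 at an unadjusted p under 0.05 (1.89% of all genes), and in Shweta Kapila 38 were higher and 26 lower, with 2 there (6.98%). Over both breeds 40 were higher and 24 lower, with 0 there (4.13%), while the difference between the yield effects had 2 there (3.81%), 1 in each direction. For breed 38 were higher in Gir and 26 lower, with 3 there (9.57%), 1 higher and 2 lower. Of all genes 47.4% were higher at high yield in Gir, 48.3% in Shweta Kapila and 48.5% over both breeds. For breed 45.1% of all genes were higher in Gir.

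Of these genes, FTH1, IDH1 and MAFG had the lowest p for yield in Gir, with groups that did not overlap. The Gir yield groups did not overlap for 10.2% of all genes. Among the 64 pathway genes tested this also held for PRDX2, TKT, MGST1 and PRDX6, each higher at high yield. It held for GCLC in the other direction, lower at high yield (-0.38 ± 0.27), and for no other gene of the 64. FTH1, the ferritin heavy chain that stores the iron HMOX1 releases, was at 1966, 1882 and 3994 CPM in high-yielding and 1820.5, 1573 and 1439 CPM in low-yielding Gir, a log2 fold change of 0.70 ± 0.34 (unadjusted p = 0.0641) that was 0.26 without high-yielding cow 3. IDH1, which makes NADPH in the cytosol, gave 0.56 ± 0.30 (unadjusted p = 0.0859), and MAFG, a small MAF partner of NRF2, gave 0.43 ± 0.25 (unadjusted p = 0.118), all with adjusted p = 1. With the monocyte sum as a covariate FTH1 was at 0.60, IDH1 at 0.28 and MAFG at 0.17. In Shweta Kapila the lowest p belonged to MGST3, a microsomal glutathione transferase (0.87 ± 0.36, unadjusted p = 0.0321), to BLVRA, which turns biliverdin into bilirubin (0.54 ± 0.23, unadjusted p = 0.0375), and to GSTZ1, a glutathione transferase of tyrosine breakdown (1.03 ± 0.48, unadjusted p = 0.0533), each with adjusted p = 0.655. With the share of short identifiers as a covariate MGST3 was at 0.20, BLVRA at 0.37 and GSTZ1 at 0.34. BLVRA was at 42.3, 27.3 and 31.0 CPM at high and 20.0, 23.1 and 25.9 CPM at low yield, so its groups did not overlap. Neither did those of SRXN1 (higher at high yield) and SESN1 (lower), where 7.21% of all genes did not overlap. Over both breeds BLVRB, GPX3 and MGST3 led, at 0.64 ± 0.30, 0.65 ± 0.31 and 0.47 ± 0.25 (adjusted p = 0.874 each). GPX3 was at 0.26 without high-yielding Shweta Kapila cow 1. With the short-identifier share MGST3 was at 0.18, BLVRB at 0.35 and GPX3 at 0.54.

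For the difference between the yield effects IDH1 (0.96 ± 0.43), BLVRA (-0.73 ± 0.33) and GSTZ1 (-1.29 ± 0.68) led, each with adjusted p = 0.955. With the short-identifier share IDH1 was at 0.32, BLVRA at -0.54 and GSTZ1 at -0.51. For breed these were GLRX2, a mitochondrial glutaredoxin (-0.53 ± 0.19, adjusted p = 0.404), NCF4, a cytosolic subunit of the phagocyte NADPH oxidase (0.55 ± 0.22, adjusted p = 0.476), and MGST1, a microsomal glutathione transferase (-0.46 ± 0.20, adjusted p = 0.487). NCF4 was at 0.096 with the monocyte sum as a covariate, and MGST1 at -0.099 without the libraries over 22 M. GLRX2 was at -0.57 and -0.42 in these 2 settings. KEAP1 and BACH1, picked for their roles after their values had been seen, also split with library total in Shweta Kapila, as did 33 of the 64 pathway genes (9 higher and 24 lower in the large libraries) and 46% of all genes. KEAP1 was at 38.7, 30.5 and 34.9 CPM in the 3 libraries over 22 M and at 102, 79.0 and 65.6 CPM in the other 3, the reverse of NFE2L2. BACH1 was at 119, 169 and 112 CPM against 41.1, 61.4 and 43.0 CPM, in the same direction as NFE2L2.

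Variation among cows of the same group differed widely between members. The SD of log2 CPM within groups was 0.608 for HMOX1, 0.594 for SOD2, 0.523 for CAT, 0.519 for GPX4 and 0.499 for GPX1, all above the median of all genes, 0.478. It was 0.457 for TXN, 0.441 for GCLM, 0.432 for NFE2L2, 0.296 for SOD1 and 0.174 for PRDX1. The SD also differed between breeds, while the SEs use a spread shared by all groups. For NFE2L2 the SD was 0.082 and 0.199 in high- and low-yielding Gir, and 0.596 and 0.587 in Shweta Kapila. For TXN it was 0.749 and 0.457 in Gir, and 0.007 and 0.251 in Shweta Kapila. Fitted to the Gir cows alone with edgeR, the HMOX1 yield value was 0.82 (unadjusted p = 0.00821, adjusted p = 0.708), and that of GPX4 0.27 (0.321 and 0.998). The highest HMOX1 level was 6.41 times the lowest. For 8 of the 10 genes all neighbouring groups in the order of means overlapped. The exceptions were HMOX1 and TXN. For HMOX1 high-yielding Gir stood clear of low-yielding Gir, a pair of groups that did not overlap for 10.2% of all genes. For TXN low-yielding Shweta Kapila (38.2 CPM or more) stood clear of high-yielding Shweta Kapila (37.9 CPM or less), a pair that did not overlap for 7.21%. High-yielding Shweta Kapila in turn stood clear of low-yielding Gir for TXN. The share of all genes with any such clear neighbours was not counted.

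Pearson's r of log2 CPM over the 12 cows describes how the members ran together; the cows share library totals, cell makeup and breed. The strongest positive pairs were PRDX1 with HMOX1 (0.767), GPX1 with GPX4 (0.765), SOD1 with GPX4 (0.725) and CAT with GCLM (0.637). SOD1 and NFE2L2 ran against each other (-0.879), as did HMOX1 and GCLM (-0.744). With the members named above as targets of its product, NFE2L2 had an r of 0.35 (GCLM), 0.31 (PRDX1), 0.15 (HMOX1) and -0.27 (TXN).

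**Figure D5:**
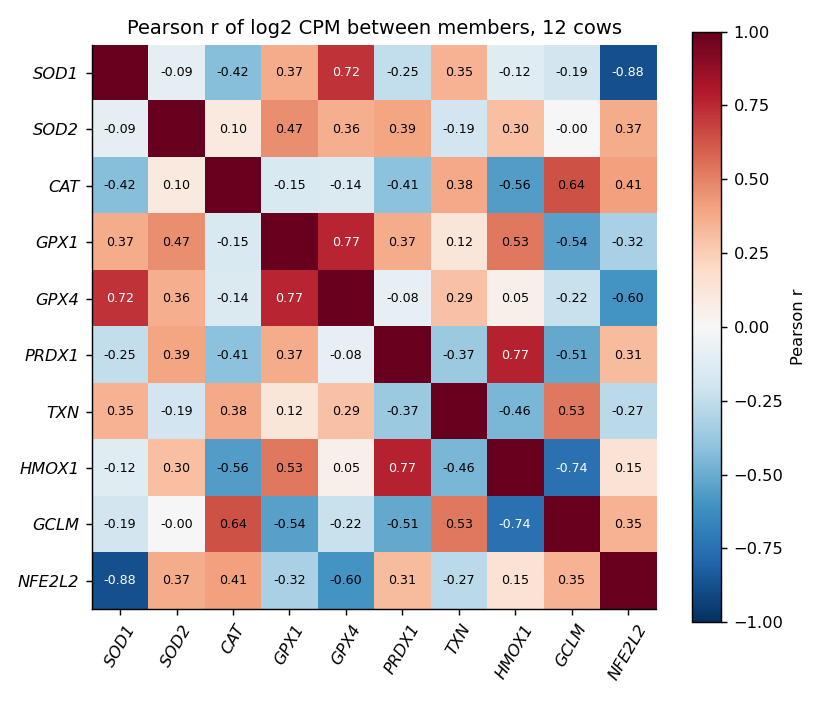
Pearson's r of log2 CPM for each pair of the 10 genes over 12 cows, from blue (negative) to red (positive). The deepest blue cell is SOD1 with NFE2L2 (-0.88), and the deepest red cells are PRDX1 with HMOX1 and GPX1 with GPX4 (both 0.77).

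Among all named genes tested, the 3 with the highest r over the 12 cows were found for each member. For HMOX1 these were PLIN3 (0.976), a lipid droplet coat protein, LTBR (0.943), the lymphotoxin beta receptor, and C7H19orf38 (0.940). For NFE2L2 they were ACSL6 (0.967), NUMB (0.965) and NLRC4 (0.964), an inflammasome protein. SOD1 was most like SOCS1 (0.967), an inhibitor of cytokine signalling, MRPS16 (0.955), of the mitochondrial ribosome, and NDFIP1 (0.948). GCLM was most like ATL2 (0.978), TOR1AIP2 (0.966) and TDG (0.966), a DNA glycosylase. GPX4 ran with MRPL52 (0.942), TMSB10 (0.935) and HIKESHI (0.933), and GPX1 with RNASEK (0.923), SHFL (0.921) and GABARAP (0.919). PRDX1 ran with CHMP4A (0.923), TBXAS1 (0.901), the thromboxane synthase, and UTP3 (0.892). CAT was closest to LRRC1 (0.885), PTPN21 (0.878) and SERPINI1 (0.872). TXN was closest to TNFRSF17 (0.886), the BCMA receptor of plasma cells, CALHM5 (0.863) and SNRPD1 (0.863). SOD2 had the loosest matches, KLF11 (0.859) and TRIB1 (0.834) among them.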

How the data were processed

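The 12 libraries, each from a separate cow, were prepared with a strand-marking kit after removal of ribosomal RNA, per the labels' protocols. Trimmomatic and FastQC appear, with no version, in the list taken from the submitters' processing notes. The sources used here do not name an aligner, counter, strand setting, build or annotation, so no coordinates are printed, and how reads shared with copies or overlapping genes were split is unknown. The table deposited by the authors holds expected counts, unscaled as far as their totals show, of which 57.0% are not whole (tolerance 1e-06).

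Symbols came from a RefSeq gene table by identifier (22754 of 26229, 86.8%). The expected counts were rounded and fitted in R 4.3.3 with edgeR 4.0.16 (filterByExpr, minimum count 10 and total 15, TMM scaling, robust quasi-likelihood fit of 4 group means). Tests were 2-sided with Benjamini-Hochberg adjustment over 15420 genes. SEs follow from the fold change and its F statistic, with the spread estimated over all 4 groups together. CPM and log2 CPM (prior count 2) are TMM scaled. A count of 10 equals 0.373 to 0.679 CPM, depending on the library. The fit was tested on simulated data. Alternatives used DESeq2 1.42.0 and limma 3.58.1, other scaling, filters and covariates, fits to each breed alone, and fits without single libraries. Python 3.11.15, NumPy 2.4.6, pandas 2.3.3 and matplotlib 3.10.9 did the rest.

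All 10 genes were named in each comparison, and of the other pathway genes those called or, with fewer than 3 called, the 3 of lowest p. The members and lists were chosen with earlier results of these data known. Some genes of these lists are not reported here.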

Additional observations from a re-analysis of the deposited data

Results flagged for a closer look

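TXN in low-yielding Shweta Kapila cow 3, at 52.9 CPM, stood apart from the other 5 cows of its breed, which lay between 37.5 and 40.3 CPM. Its gap to the next cow was 0.816 of the breed's range, above Dixon's critical value for 6 samples at the 0.05 level. The test was run on 20 sets of 6 cows (10 genes in 2 breeds), and chance marks about 1 set in 20.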

How the results depend on the processing

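The edgeR count of called genes was 0 in every comparison and moved as follows. DESeq2 called 1 gene for yield in Gir, 61 for yield in Shweta Kapila, 4 for both breeds, 9 for the difference between the yield effects and 195 for breed. Limma-voom with sample weights called 1, 3908, 1289, 1321 and 2580 genes. For breed the count was 3 without the filter, 53 with log2 total and 24 with the share of short identifiers as a covariate, and 31 without the 3 libraries over 22 M. For yield in Shweta Kapila it was 1 with log2 total as a covariate and 3 without those libraries, and for both breeds 1 without them. Leaving out each library gave 0 to 447 genes for breed (447 without low-yielding Shweta Kapila cow 3, otherwise at most 4), 0 to 2 for yield in Shweta Kapila, 0 to 1 for the difference, and 0 for the others.

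Of the members, limma-voom called 4 for breed (CAT, GCLM, HMOX1 and TXN, adjusted p = 0.0289, 0.0272, 0.00732 and 0.0341), 2 for yield in Shweta Kapila (NFE2L2, -0.98, adjusted p = 0.00895, and SOD1, 0.72, adjusted p = 0.0175) and 2 for the difference (NFE2L2, 1.49, and SOD1, -1.01). No other alternative called a member.

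Replicate numbers did not pair the cows: deviations of same-numbered libraries correlated at -0.558 to 0.339 over 18 pairs, and 3 of 12 libraries lay closest to their own number. With the replicate block 1 gene was called for breed and 0 elsewhere, and HMOX1 for yield in Shweta Kapila was -0.0031.

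The following signs turned, and the cause was not tested. For yield in Gir, log2 total as a covariate gave CAT -0.0068 and TXN 0.0057, and the monocyte sum as a covariate gave CAT -0.32, GCLM 0.16, PRDX1 -0.10 and TXN 0.16. For yield in Shweta Kapila, the share of short identifiers as a covariate gave GCLM 0.027, GPX1 -0.13, GPX4 -0.062, HMOX1 -0.27, NFE2L2 0.088 and SOD2 0.34. Without the libraries over 22 M, these were GCLM 0.018, HMOX1 -0.31, PRDX1 0.0070 and SOD2 0.84. Limma-voom gave HMOX1 -0.38 and SOD2 0.037 there, and the monocyte sum SOD2 0.14. For breed, the monocyte sum gave NFE2L2 -0.21 and SOD1 0.044, and SOD2 was 0.042 with limma-voom and 0.086 without the libraries over 22 M. For both breeds, the short-identifier share gave NFE2L2 0.24 and SOD1 -0.077, leaving out the libraries over 22 M gave NFE2L2 0.092 and PRDX1 0.042, and no filter gave PRDX1 0.0034. For the difference, the short-identifier share gave GCLM -0.11 and GPX4 0.42, leaving out those libraries GCLM -0.054, log2 total GPX4 0.054, the monocyte sum GPX1 -0.37 and PRDX1 -0.071, and limma-voom TXN -0.17.

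Leaving out each library turned signs over these ranges. For yield in Gir they were -0.36 to 0.34 (CAT), -0.22 to 0.078 (GCLM) and -0.50 to 0.26 (TXN). For yield in Shweta Kapila they were -0.17 to 0.66 (GPX1), -0.46 to 0.48 (HMOX1), -0.27 to 0.044 (PRDX1) and -0.54 to 0.46 (SOD2). For breed they were -0.35 to 0.082 (GPX1), -0.040 to 0.30 (NFE2L2) and -0.28 to 0.13 (SOD2). For both breeds they were -0.27 to 0.054 (NFE2L2), -0.10 to 0.060 (PRDX1) and -0.36 to 0.020 (TXN), and for the difference -0.16 to 0.67 (GPX1) and -0.28 to 0.47 (TXN). With 3 cows a group, the fit resolves little below the SEs given, and GCLM, at 64.6 to 314 counts, is the member most limited by depth.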
